A study of Mus musculus with 3 samples.

Results

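A set of 2040 probes, each a short single-stranded stretch of a mouse promoter, was singled out because the DNA pulled down with an antibody against PRDM2 gave little signal on them although their GC content was high. The members were selected on PRDM2 values. They are autosomal probes with 50 to under 65% GC whose input was well above background on all 3 arrays, and whose log2 ratio of immunoprecipitated (IP) over input signal lay in the lowest 10% of such probes on each of the 2 PRDM2 arrays. The array carried 237203 probes that are not controls, of which 39663 were autosomal with that GC content and 39427 also had sufficient input. These 39427 are called the GC class below, and the 37387 outside the set are called the other class probes. The set is 5.17% of the class.

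The DNA came from C2C12, an established line of mouse myoblasts that is routinely used as a model of muscle precursor cells. All samples were in G0, a reversible arrest outside the cell cycle, reached by culture in 2% methyl cellulose, which denies the cells attachment, and chromatin was fixed with 1% formaldehyde. PRDM2 was precipitated for 2 arrays and histone H3 dimethylated at lysine 9 (H3K9me2) for 1 array. On each array IP DNA was labelled with Cy5 and its own input DNA with Cy3. Dyes were not exchanged, no array with a control antibody was used here, and the labels do not tell separate cultures from repeats of 1 culture. PRDM2 array 2 and the H3K9me2 array were scanned on the same day and PRDM2 array 1 on another.

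PRDM2, also called RIZ, is a zinc finger protein with a PR domain related to the SET domain of histone methyltransferases, and it is known as an enzyme and a partner of methylation at lysine 9 of histone H3. H3K9me2 is a mark of repressed chromatin that is laid down mainly by G9a and GLP. Promoters of many widely used genes lie in CpG islands, stretches rich in GC and in the dinucleotide CpG, which elsewhere in mammalian genomes is depleted because methylated cytosine mutates readily.

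The 5 set probes with the lowest mean PRDM2 ratio show what a member looks like. Each is printed 5′ to 3′ as on the array, above its nearest probe of the GC class, with its longest self-complementary stretch (a stretch equal to its own reverse complement) in capitals where that reached 6 bases. Coordinates are those of the array design, whose genome build and probe strand are not given in the sources used here.
Lmx1b, set probe at chr2:33464253-33464297: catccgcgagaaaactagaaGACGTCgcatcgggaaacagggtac
Lmx1b, neighbour at chr2:33464491-33464535: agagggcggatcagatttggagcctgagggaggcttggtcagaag
Azin1, set probe at chr15:38462875-38462919: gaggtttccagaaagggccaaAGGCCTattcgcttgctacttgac
Azin1, neighbour at chr15:38463009-38463053: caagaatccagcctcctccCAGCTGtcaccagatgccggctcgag
Tead3, set probe at chr17:28078613-28078657: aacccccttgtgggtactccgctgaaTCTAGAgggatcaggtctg
Tead3, neighbour at chr17:28078887-28078931: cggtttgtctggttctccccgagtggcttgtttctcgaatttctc
Kif11, set probe at chr19:37441346-37441390: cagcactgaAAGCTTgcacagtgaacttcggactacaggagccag
Kif11, neighbour at chr19:37441223-37441267: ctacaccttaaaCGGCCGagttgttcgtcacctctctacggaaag
Hspa8, set probe at chr9:40552284-40552329: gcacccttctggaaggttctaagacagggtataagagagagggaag
Hspa8, neighbour at chr9:40552398-40552442: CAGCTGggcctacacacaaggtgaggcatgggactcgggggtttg

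The set probe of Lmx1b, which encodes a LIM homeodomain factor of the dorsal limb and kidney, had a log2 ratio of -4.95 on PRDM2 array 1, -3.27 on PRDM2 array 2 and -4.17 on the H3K9me2 array. Its neighbour 238 bp away had log2 ratios of 2.76, 0.63 and 1.30 in the same order. All 3 arrays were low on the first and above 0 on the second. For Azin1, an inhibitor of antizyme in polyamine control, the set probe was at -3.84, -4.09 and -6.43, and the neighbour 134 bp away at 3.76, 2.48 and 1.67. The set probe of Tead3, a TEAD factor of the Hippo pathway, was at -3.84, -4.04 and -1.88, and its neighbour 274 bp away at 2.83, 1.52 and 1.91. Here the H3K9me2 value was low as well, but less far below 0 than those for PRDM2.

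Kif11 and Hspa8 belong to the mitosis and chaperone lists described later. At Kif11, the motor kinesin of the mitotic spindle, the set probe had log2 ratios of -3.16, -4.37 and -5.37. This was the 1 pair of the 5 whose neighbour, 123 bp away, was also below 0 on every array, at -0.70, -3.34 and -0.73. The Kif11 set probe was found letter for letter in the RefSeq promoter table of build GRCm38.p6, at chr19:37376202-37376246, with its middle at -157.5 bp from the start site. At Hspa8, the constitutive heat shock cognate protein, the set probe was at -3.27, -4.23 and -4.60 and the neighbour 114 bp away at 0.78, 1.50 and 0.24.

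Low ratios came with dim IP spots, so the ratios of part of the set are imprecise. The Azin1 set probe gave IP signals of 92.0, 50.6 and 13.3 against input signals of 1322, 862 and 1147 on the PRDM2 arrays and the H3K9me2 array, in that order, and none of its IP spots was well above background. The same held for the PRDM2 IP of the Lmx1b and Tead3 set probes on both arrays, and for those of Kif11 and Hspa8 on PRDM2 array 2 and the H3K9me2 array. In the whole set, IP was not well above background on 33.1% of probes on PRDM2 array 1, 36.6% on PRDM2 array 2 and 7.16% on the H3K9me2 array. Among the other class probes the shares were 3.12%, 2.75% and 0.596%. The IP signal of such a spot was not clearly above background, so its ratio is imprecise and could be too low or too high. Most of the set, 1124 probes or 55.1%, had IP well above background on both PRDM2 arrays.

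By construction the set lies below a limit of -1.59 on PRDM2 array 1 and -1.03 on PRDM2 array 2. On PRDM2 array 1 its log2 ratios ran from -4.95 over a median of -2.20 to -1.59, and on PRDM2 array 2 from -4.37 over -1.66 to -1.03. The other class probes had medians of 1.00 and 1.16, and all probes of the array -0.91 and -0.80. The set's medians, low by construction, were thus also below those of all probes, most of which are poorer in GC. The lower quartiles of all probes were -1.56 and -1.46 on the 2 arrays in order. The whole set lay below the first, while its upper quartile on PRDM2 array 2, -1.32, lay above the second. Just inside the limits lay probes of Pde10a at -2.09 and -1.03, Slc6a19 at -1.59 and -1.58, and Gipc2 at -2.02 and -1.03 on the 2 arrays in order. Just outside lay Cbfa2t2 at -1.59 and -1.45, Spsb1 at -1.59 and -2.42, and Slc18a3 at -2.21 and -1.02, so the edge of the set separates probes of nearly equal value.

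The arrays shared many of their low probes. The lowest 10% held 3943 probes on each PRDM2 array, and the 2040 in common were 51.7% of each list. Membership depended on how the signals were processed. Of the set, 1550 probes or 76.0% were found again with the authors' deposited value table. With normexp background correction of the raw spots it was 470, in a set of 1315, and with loess normalization within each array 398 or 19.5%, in a set of 2069.

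The IP channel carried the difference. The median log2 IP signal was 8.40 in the set and 11.73 in the other class probes on PRDM2 array 1, and 8.46 and 11.69 on PRDM2 array 2. The median log2 input signal was 10.65 and 10.80 on array 1, and 10.18 and 10.55 on array 2. The input of the set was thus lower by only 0.15 and 0.36, against 3.33 and 3.23 for IP. Brightness also depends on each probe's own sequence, so these medians compare groups of probes and not amounts of DNA.

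H3K9me2 was low on the same probes. The ratio of this array took no part in the choice of the set, for which only its input had to be well above background. The log2 ratio in the set ran from -6.48 over a median of -1.72 to 1.90, with a middle range from quartile to quartile of -2.57 to -0.83. In the other class probes the median was 0.76 with quartiles of -0.14 and 1.56, and over all probes of the array it was -0.27. The set thus lay 2.49 below the other class probes on the log2 scale, and the middle ranges did not overlap. With a single H3K9me2 array there is no replicate to set this difference against, and no test was made.

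**Figure D1:**
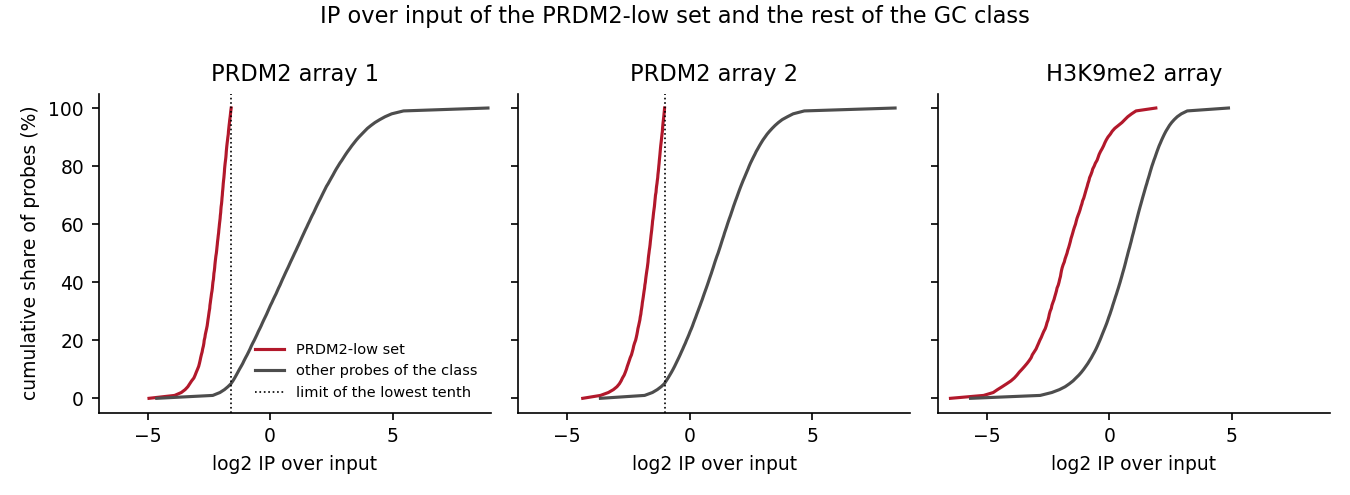
Cumulative share of probes (vertical axis, percent) by log2 ratio of IP over input (horizontal axis) on each array, for the 2040 probes of the PRDM2-low set and the 37387 other class probes. The dotted lines are the limits of -1.59 and -1.03 that define the set on the PRDM2 arrays; on the H3K9me2 array, which has no limit, the set's median of -1.72 lies left of the other class probes' 0.76.

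Counted by rank, 1249 set probes or 61.2% lay in the lowest 10% of the class for H3K9me2, where 10% of the class lies by definition. With normexp the share was 30.3%, in a set of 1315, and the difference of medians -1.23. Among the other class probes it was 7.21% with the processed signals, or 9.93% when these were weighted to the set's GC content in whole percents (called GC-weighted below). Only 75 set probes, 3.68%, lay above the class median, which holds 50% of the class above it, and 0 of 2040 lay in the highest 10%, the place of 10% of the class. Read from the other side, the set held 31.7% of the class probes in that lowest 10%, 10.3% of those in the next 10% by H3K9me2 and 4.54% of those in the one after. The share fell at every such step along the mark's range, to 0 in the highest.

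Probes low on a single PRDM2 array were in between. H3K9me2 was in its lowest 10% on 35.5% of the 1903 probes low on PRDM2 array 1 alone and on 27.4% of the 1903 low on PRDM2 array 2 alone. It was so on 4.45% of the 33581 low on neither. The share was thus higher for array 1 than for array 2. Whether the scan day, shared by array 2 and the H3K9me2 array, bears on these shares was not tested. The H3K9me2 difference between set and other class probes was -2.27 within whole percents of GC, -2.49 within CpG counts and -2.47 within 10 equal bins of the H3K9me2 array's input signal. It was also low on probes with measurable PRDM2 IP: the 1124 with IP well above background on both PRDM2 arrays had a median H3K9me2 log2 ratio of -1.61, with 58.9% in the lowest 10%.

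As for PRDM2, the low H3K9me2 ratio lay in the IP channel. The set's median log2 IP signal on the H3K9me2 array was 8.78 against 11.50 in the other class probes, and its log2 input signal 10.46 against 10.77. All 3 precipitations therefore gave dim IP spots over ordinary input on these probes.

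A few members went against this. The highest H3K9me2 log2 ratio in the set was 1.90, at a probe of Abi3bp, a matrix protein, whose PRDM2 ratios were -2.92 and -1.27. Probes of Neud4, of Wnt3, a secreted Wnt ligand, of Vdp, a tethering protein of the Golgi, and of Rela, the p65 subunit of NF-κB, followed at 1.88, 1.75, 1.70 and 1.69. The Rela probe had a bright H3K9me2 IP signal of 11916 over an input of 3703, while its PRDM2 IP signals of 615 and 837 stood over inputs of 3254 and 2382. At this probe IP was brighter than input for H3K9me2 and dimmer than input on both PRDM2 arrays. At the other end, the lowest H3K9me2 log2 ratios were -6.48 at Nr2e1, an orphan nuclear receptor of neural stem cells, -6.43 at Azin1, -6.14 at Eif3s7, a subunit of translation initiation factor eIF3, -5.91 at Vegfb, a growth factor, and -5.85 at Lgals3bp. The H3K9me2 IP was not well above background on any of these 5, so the values are imprecise.

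GC content was the plainest feature of the set, even inside a class chosen for high GC. The share of class probes in the set was 11.1% at 50 to under 53% GC, 5.39% at 53 to under 56%, 2.14% at 56 to under 59%, 0.925% at 59 to under 62% and 0.244% at 62 to under 65%. The lowest of these bands held 57.5% of the set. The mean GC content was 52.6% in the set and 56.1% in the other class probes. With loess the same fall was shallower, from 7.02% to 2.55%, and with normexp it went from 5.81% to 0.581%. Still, 16 set probes came from the richest band, and their median H3K9me2 log2 ratio was -2.24 against 1.15 for the other class probes of that band.

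CpG counts were alike at first sight and apart once GC was held equal. Both groups had a median of 2 CpG per probe, and the means were 1.76 in the set and 1.81 in the other class probes. The GC-weighted mean of the other class probes was 1.22. At least 1 CpG was present in 81.4% of the set and in 66.3% of the GC-weighted other class probes, and the mean of observed over expected CpG was 0.577 against 0.410. Set probes therefore held more CpG than their GC content would give.

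Within narrow GC bands the trend was stepwise. At 50 to under 53% GC the set held 6.91% of the 3982 probes without CpG, 10.8% of those with 1, 15.6% of those with 2, 17.8% of those with 3 and 23.6% of the 301 with 4 or more. At 53 to under 56% GC it held 2.81%, 4.56%, 6.21%, 8.39% and 9.60%. Every step was upward in both bands, which together hold most of the set. With the authors' value table the set's mean CpG count was 1.76 against a GC-weighted 1.23, but with normexp it was 1.34 against 1.39 and with loess 1.23 against 1.62, so the direction does not hold under those processings.

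**Figure D2:**
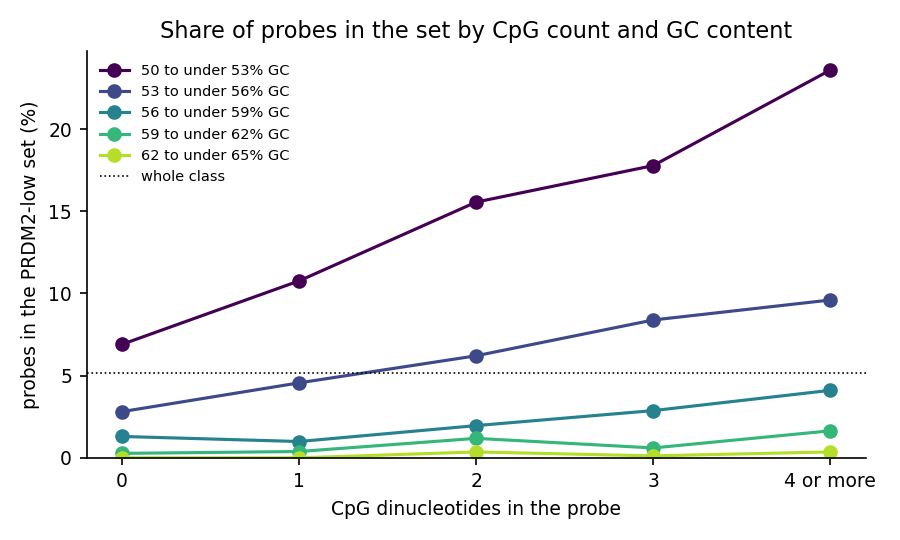
Percent of class probes that belong to the PRDM2-low set (vertical axis) by number of CpG dinucleotides in the probe (horizontal axis), with 1 line per band of GC content and a dotted line at the 5.17% of the whole class. In the band of 50 to under 53% GC the share goes from 6.91% without CpG to 23.6% with 4 or more, while bands above 59% GC stay below 2%.

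Base composition was lopsided between strands. In the set A made up 25.4% of bases and T 22.0%, where the GC-weighted other class probes had 23.5% and 23.9%. G stood at 27.3% against 26.1% and C at 25.3% against 26.5%. The printed probe strand of the set was thus richer in purines. Runs of 5 or more of 1 base were found on 4.61% of set probes and 8.28% of GC-weighted other class probes.

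Self-complementary stretches were more frequent in the set. This feature was chosen after values had been seen. A stretch of 8 or more bases that equals its own reverse complement, with no loop between its arms, was found in 22.6% of the set, 11.5% of the other class probes and 10.2% of these after GC weighting. For 10 or more bases it was 8.19% against a GC-weighted 2.81%, and for 12 or more 2.35% against 0.739%. The longest ones in the set are shown because the palindrome alone fills a large part of the probe. Predicted genes were passed over, among them 0610009B22Rik with a stretch of 16 bases, which had log2 ratios of -3.75, -2.79 and -3.84 on the 3 arrays in order.
Fgf23, chr6:127038543-127038588: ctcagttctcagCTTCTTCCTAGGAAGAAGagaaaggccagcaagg
Aph1b, chr9:66594790-66594834: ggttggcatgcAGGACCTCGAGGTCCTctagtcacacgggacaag
Hebp2, chr10:18235403-18235448: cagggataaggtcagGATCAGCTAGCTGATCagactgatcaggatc
Gys2, chr6:142430053-142430097: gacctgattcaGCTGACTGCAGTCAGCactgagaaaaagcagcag
Larp5, chr13:9093198-9093242: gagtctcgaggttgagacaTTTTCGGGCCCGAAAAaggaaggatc

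The Fgf23 probe, from the promoter of a bone hormone of phosphate balance, has a stretch of 18 bases and log2 ratios of -2.26, -2.62 and -3.94 on the PRDM2 arrays and the H3K9me2 array, in that order. The other four have stretches of 16 bases. Aph1b, part of γ-secretase, was at -3.54, -1.93 and -3.43, and Gys2, the liver glycogen synthase, at -2.87, -1.83 and -3.44. Hebp2 had -2.36, -2.56 and -1.22, and Larp5 -2.55, -1.67 and -2.65. All 5 H3K9me2 ratios, which took no part in the choice of the set, were thus below 0. All but that of Hebp2 lay in the lowest 10% of the class, where 61.2% of the whole set lay.

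The same order was seen over the whole class and on every array. From probes whose longest stretch was at most 2 bases to those with 12 or more, the share in the set went from 3.53% to 13.9%, the share low on PRDM2 array 1 from 7.12% to 22.6%, on PRDM2 array 2 from 7.89% to 23.2% and on the H3K9me2 array from 5.56% to 29.3%. Among the probes low on neither PRDM2 array, a group given by the same PRDM2 limits, the share low for H3K9me2 went from 2.56% of 4837 to 12.8% of 235. At 50 to under 53% GC the median log2 IP signal fell by this order from 11.24 to 8.58 on PRDM2 array 1 and from 11.37 to 8.53 on the H3K9me2 array. The median log2 input signal went from 10.77 to 9.77 and from 10.76 to 9.57, so both channels were dimmer on palindromic probes and IP more so.

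In the authors' value table, 21.4% of the set held a stretch of 8 or more bases against a GC-weighted 10.4%. With normexp it was 12.4% against 11.2% and with loess 10.2% against 11.7%. The excess is therefore seen with the processed signals and the value table, is small with normexp and is not seen with loess. Most of the set, as most of the class, held no such stretch.

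**Figure D3:**
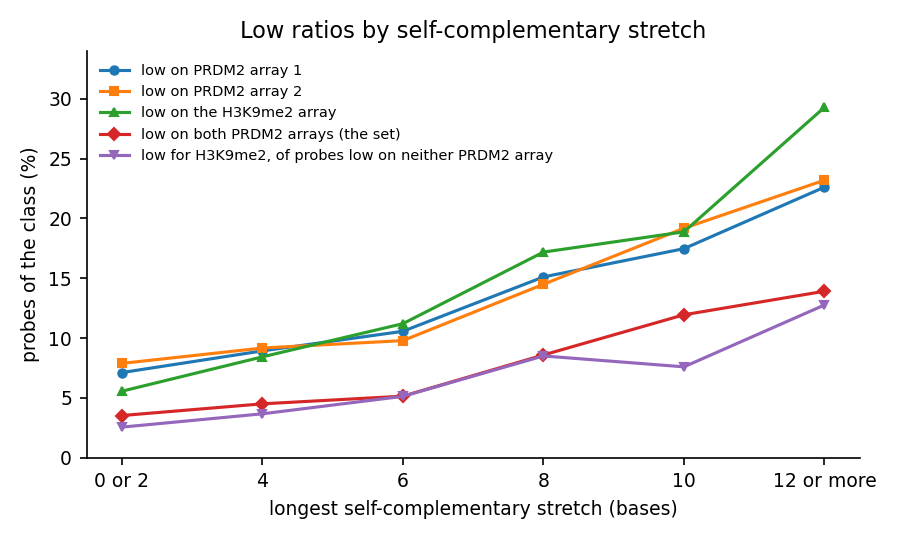
Percent of class probes with a low ratio (vertical axis) by the length of the probe's longest self-complementary stretch in bases (horizontal axis). Low means the lowest 10% of the class on the array named; lines show each array, both PRDM2 arrays together, and H3K9me2 among probes low on neither PRDM2 array, which goes from 2.56% to 12.8%.

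Short motifs of known factors were searched on both strands, and motifs may overlap one another. The GC box of SP1, GGGCGG, was in 0.392% of the set, 2.46% of the other class probes, 1.14% of these after GC weighting and 1.07% of all probes of the array. The CACCC box of KLF factors was in 4.80% of the set and in a GC-weighted 10.1% of the other class probes (6.65% of all probes), and a run of GGGGG in 2.50% against 5.10% (3.64% of all). These G-rich words were thus scarcer in the set than its GC content would give. The E-box CACGTG was in 1.57% against 0.723% (0.561% of all), the core of the NRF1 site, TGCGCA, in 1.47% against 0.580% (0.333% of all) and GGATCC, a palindrome added after values had been seen, in 3.24% against 1.27% (0.904% of all). All of these last words are self-complementary themselves. The myogenic E-box CAGCTG, which also is, was in 2.75% against 3.03% (1.73% of all), and the CRE core TGACGT in 1.27% against 1.01% (0.760% of all).

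Words shared by few probes marked the set at the low end of GC. Each probe was scored by how many probes of the array hold its median 8-base word. At 50 to under 53% GC the set held 19.3% of the class probes in the fifth with the rarest words, then 16.2%, 12.5%, 9.53% and 8.20% in the fifth with the commonest. Over all GC contents the shares lay between 4.57% and 5.45%. CpG count, with which the set's share also rose in this low band, was not held equal here. The word score was not repeated with normexp or loess.

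Members mostly stood alone among the class probes along the chromosome. Of the set, 6.52% had another set probe as the next class probe on either side within 1000 bp, and of the other class probes 6.12% had one, so a set probe was about as frequent beside a member as elsewhere. In runs of neighbouring class probes the set fell into 1907 single probes, 65 pairs and 1 run of 3. Runs were counted over class probes alone, so they do not show whether a low PRDM2 domain extends over probes of other GC content. The loess set gave 8.94% against 5.80%, and the normexp set 3.35% against 3.85%.

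The run of 3 lay at the gene of β-arrestin 2, Arrb2, an adaptor of activated G protein-coupled receptors, and spanned 1079 bp from chr11:70249182 to 70250260.
Arrb2, first of the run: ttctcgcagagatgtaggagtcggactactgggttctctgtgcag
Arrb2, second of the run: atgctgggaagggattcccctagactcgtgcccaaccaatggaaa
Arrb2, last of the run: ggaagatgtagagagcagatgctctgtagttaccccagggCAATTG
Their log2 ratios were -2.37, -3.06 and -2.07 on PRDM2 array 1, -3.11, -1.49 and -1.96 on PRDM2 array 2, and -1.37, -3.83 and -2.15 on the H3K9me2 array. Another set probe of Arrb2 lay upstream of the run in array coordinates at -2.10, -1.09 and -1.49. The 2 class probes between it and the run were at 3.47 and 0.69 on PRDM2 array 1, 2.06 and 2.66 on PRDM2 array 2 and 1.25 and 1.72 for H3K9me2. At this gene low and high probes thus lay within short distances of each other.

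The same was seen across the set. There were 1135 pairs of a set probe and another class probe 100 to 300 bp away, with a median distance of 157 bp. The neighbour was higher in 98.2% of pairs on PRDM2 array 1 and 98.3% on PRDM2 array 2, as the choice of the set makes likely, and in 89.3% on the H3K9me2 array. The median difference was 3.14, 2.76 and 2.19 on the log2 scale. Taken by channel, the neighbour's log2 IP signal was higher by a median of 3.42, 3.34 and 2.75 and its log2 input signal by 0.27, 0.47 and 0.41, and higher input lowers the ratio. In the 448 pairs with GC contents within 3 percentage points the neighbour was higher in 97.8%, 97.8% and 88.8%, by 2.57, 2.29 and 2.07.

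Neighbours of members were close to ordinary. Only neighbours outside the set were counted. Class probes 100 to 200 bp from a set probe had median log2 ratios of 0.85 and 1.10 on the PRDM2 arrays and 0.54 for H3K9me2, and those at the same distance from other class probes 1.03, 1.31 and 0.78. At 400 to 600 bp the medians were 1.06, 1.22 and 0.70 against 1.07, 1.24 and 0.79. When probes of any GC content outside the set were taken, the medians at 100 to 200 bp were -0.38, -0.08 and -0.09 beside the set. Beside other class probes they were 0.06, 0.29 and 0.19, with median GC contents of 48.9% in both. With neighbouring members left out, the dip around members was thus small on the log2 scale, while the members themselves differed from the other class probes by -3.20, -2.82 and -2.49.

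**Figure D4:**
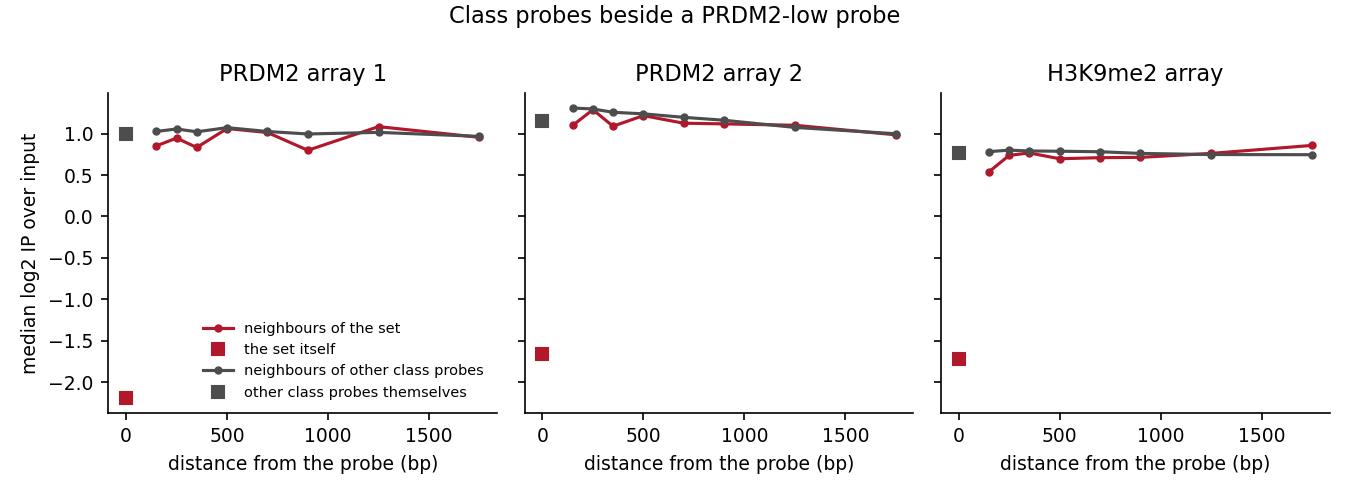
Median log2 ratio of IP over input (vertical axis) of class probes outside the set by distance in bp (horizontal axis) from a set probe (red) or from another class probe (grey), on each array; squares at distance 0 are the medians of the set and of the other class probes themselves. Lines of neighbours lie close together, at 0.85 and 1.03 on PRDM2 array 1 for 100 to 200 bp, while the set's own square lies at -2.20.

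Position on the slide and on the genome was checked next. Over 100 blocks of the slide with at least 100 class probes each, the share in the set ran from 2.57% over a median of 5.21% to 9.09%, and 4.97% of class spots touching a set spot were members too. Chromosome 15 stood apart, with 165 of 1945 class probes in the set, or 8.48%, where its GC contents would give 104. The other autosomes lay between 4.25% on chromosome 12 and 5.90% on chromosome 9. On chromosome 15 the median log2 input signal of class probes was above that of the class by 0.47, 0.43 and 0.41 on the PRDM2 arrays and the H3K9me2 array, in that order, and the IP signal by 0.15, 0.00 and 0.01. The median log2 ratio relative to the class was -0.36, -0.38 and -0.31. Azin1, Eif3s7, Plec1, Pla2g6, Cacng2, Fbxo32, Rpl3, Hoxc11 and Myc, named in other paragraphs, lie on this chromosome. C2C12 is an aneuploid line, and whether this chromosome is present in more copies was not tested.

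Start sites gave no clear pattern. Exact matches in the RefSeq promoter table (GRCm38.p6, 250 bases before to 50 after the start) were found for 5440 class probes, of which 265 or 4.87% were in the set. The share was 5.20% at -250 to -150 bp from the start, 5.42% at -150 to -50 bp and 4.08% at -50 to 50 bp, where GC content alone would give 4.53%, 4.33% and 4.08%. The first bands lay a little above that level and the band over the start site on it.

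The set touched many genes, mostly at single probes. A gene name was given for 2007 members, with 1836 names among the 12400 of the class, and 33 members had none. Of the names, 1681 had 1 member, 141 had 2, 12 had 3 and 2 had 4. Of the 6623 names with at least 3 class probes, 0 had all of them in the set and 49 had at least 50% of them. Most names with a member thus had 1. How many would have 1 in any set of 5.17% of the class was not worked out, so these counts are not read as a trait of the set.

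Arrb2 with 4 of 6 class probes and Plec1 with 4 of 45 had most members. Plec1, the gene of the cytoskeletal linker plectin, lies on chromosome 15, and its 4 members were spread over 35429 bp, with mean log2 ratios of -2.13, -1.70 and -1.94 on the PRDM2 arrays and the H3K9me2 array, in that order. Its other class probes had medians of 1.45, 0.90 and 0.73. Next came Loxl2, a lysyl oxidase that cross-links collagen, with 3 of 4 class probes in the set. Their log2 ratios on PRDM2 array 1 were -2.10, -4.29 and -1.68, on PRDM2 array 2 -2.52, -2.25 and -1.12, and for H3K9me2 -1.99, -1.87 and -0.78, while the remaining probe was at 1.61, 1.50 and 0.74. At Loxl2 all members were below 0 and the probe between them above 0 on every array.

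Crlz1, now Utp3, a factor of ribosome assembly, had 3 of 5, with mean log2 ratios of -2.75, -2.12 and -2.46 beside medians of 0.88, 2.17 and 1.55 for its other class probes. Pla2g6, a phospholipase A2 that needs no calcium, had 3 of 6, with means of -3.23, -1.99 and -1.95 beside 0.87, 0.36 and 0.91. At Arl11, a small GTPase of the ARF family, 3 of 6 were members with means of -1.94, -1.65 and -1.10, and here the other class probes were low too, with medians of -1.22, -0.94 and -1.21. Arl11 was the exception among the 12 genes in that its other class probes had a clearly negative median on all 3 arrays.

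The remaining genes of the 12 were Spry4, a brake on receptor tyrosine kinase signalling, Cacna2d4 and Cacng2, auxiliary subunits of calcium channels and AMPA receptors, each with 3 of 7, Sfxn5, a mitochondrial carrier, and Vav2, a signalling adaptor with exchange factor activity, each with 3 of 9, and Angptl2, a secreted angiopoietin-like protein, with 3 of 10. Their members' mean H3K9me2 log2 ratios were -2.14 at Spry4, -1.47 at Cacna2d4, -1.75 at Cacng2, -0.56 at Sfxn5, -2.97 at Vav2 and -0.55 at Angptl2. The means of Sfxn5 and Angptl2 were nearest to 0: at Angptl2 the H3K9me2 log2 ratios of the members were 1.13, -2.08 and -0.69, whereas at Sfxn5 all lay between -0.82 and -0.09. At Vav2 the members had -1.86, -3.47 and -3.58 for H3K9me2 beside a median of 0.64 in its other class probes.

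Among the pairs, the longest runs after Arrb2, Lmx1b had the lowest values on PRDM2 array 1 and the H3K9me2 array, with means of -4.08 and -2.79 for PRDM2 and -4.15 for H3K9me2 over 443 bp. Pairs were also found at Bst2, a membrane protein that tethers budding viruses, with means of -2.65, -2.64 and -2.04, at Pla2g6 with -3.17, -2.04 and -2.39, and between Usmg5 and Pdcd11, which share 1 name on the array, with -1.84, -3.33 and -2.31. The last pair was lower on PRDM2 array 2 than on array 1, the reverse of the order at Lmx1b.

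Gene families were described with 28 lists by name, which together held 16.2% of the set's named probes and 15.1% of the other named class probes. The set took 5.17% of the class as a whole, and 18 of the 28 lists were above that. The shares below carry no test, and the number given by GC content alone is the sum of the set's share in each probe's whole percent of GC.

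Among genes of protein turnover and synthesis the shares differed from list to list. Proteasome subunits had 8 of 84 class probes in the set, 9.52%, where GC content would give 4.08 probes. Psma1, a subunit of the core ring, had both of its class probes in the set with mean log2 ratios of -1.98, -1.64 and -1.59, and Psmb3, another, its only one at -2.88, -2.78 and -4.73. Chaperones had 16 of 182, 8.79%, against 8.48 probes from GC, with Hspa12b (2 of 7) and Hspa8 (1 of 6) as members. Ubiquitin enzymes had 21 of 346, 6.07%, against 14.5, among them 2 of 7 of Fbxo32, the atrogin-1 ligase of muscle wasting, with mean log2 ratios of -2.08, -2.06 and -1.74, and 2 of 3 of Ube2s.

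These excesses rest on few probes and on the processing. With normexp, proteasome genes had 3 probes against 2.74 from GC, chaperones 3 against 5.67 and ubiquitin enzymes 8 against 9.71. With loess they had 4 against 4.38, 13 against 9.39 and 11 against 16.5. The excesses stayed with the authors' value table, at 8 against 3.74, 14 against 7.72 and 17 against 13.3 in the same order. Ribosomal protein genes had 14 of 168, 8.33%, against 9.54 with the processed signals. They had 12 against 8.68 with the value table, 18 against 9.06 with loess and 4 against 5.95 with normexp. Mitochondrial ribosomal proteins had 8 of 136, 5.88%, against 6.79, and aminoacyl-tRNA synthetases 2 of 60, 3.33%, against 2.70, both near the class or below it. At Rps15a 2 of 4 were members, and the only class probe of Rpl3 was at -2.85, -4.01 and -2.41.

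DNA replication genes had 8 of 104, 7.69%, against 5.06, with Orc3l of the origin recognition complex at -2.52, -2.99 and -1.88 and Gins3 of the replicative helicase at -3.81, -1.20 and -1.86. Genes of mitosis had 7 of 111, 6.31%, against 5.11, with Kif11 and Ncaph, a condensin subunit whose member was at -1.75, -2.62 and -4.56. Both lists fell short of their GC level with normexp and loess, but not with the authors' value table. DNA replication had 1 against 3.33 with normexp, 2 against 5.42 with loess and 9 against 4.62 with the value table. Mitosis had 2 against 3.45, 5 against 5.70 and 9 against 4.66 in that order. DNA repair genes had 2 of 98, 2.04%, against 4.48, a member each at Ercc1 and Parp1. Respiratory chain genes had 10 of 155, 6.45%, against 7.01. Of these 10 set probes, 9 were in the lowest 10% for H3K9me2, as were 61.2% of the whole set. Other lists lay on either side of that share, with 7 of 8 for DNA replication and 3 of 8 for Hox genes.

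Developmental regulators outside the Hox clusters were at the low end. They had 20 of 594 class probes in the set, 3.37%, where GC content would give 30.6. With the authors' value table it was 20 against 27.9, with normexp 13 against 19.6 and with loess 16 against 30.8, so this list stayed below its GC level under each. The same held, in fewer probes, for DNA repair genes, with 3 against 4.07, 1 against 3.01 and 3 against 4.95 in that order. Myogenic regulators likewise had 3 against 4.63, 2 against 3.33 and 2 against 5.18. Dlx2, a homeobox gene, had 2 of 6 with mean log2 ratios of -2.13, -2.17 and -2.67, and Sox4 2 of 4 with -1.84, -1.98 and -0.76. Hox genes themselves had 8 of 133, 6.02%, against 6.88, led by Hoxc11 with 2 of 6.

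Muscle genes were described with a pair of lists. Myogenic regulators had 3 of 98, 3.06%, against 5.08, and these included 1 of the 8 class probes of Myod1, the master factor of the lineage, at -2.59, -1.52 and -0.52, whereas its other class probes had medians of -0.02, 1.36 and 0.40. At Six4, a homeodomain factor upstream of it, 1 of 5 was a member at -2.01, -1.11 and -3.58. Genes of muscle structure had 6 of 102, 5.88%, against 7.55, with 2 of 7 at Myh6, the α heavy chain of cardiac myosin.

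Immediate early genes, which respond to growth factors at the exit from G0, had 12 of 214, 5.61%, against 10.7. Myc had 2 of 7, with log2 ratios of -2.42 and -2.57 on PRDM2 array 1, -2.27 and -2.07 on PRDM2 array 2 and -2.31 and -1.98 for H3K9me2. Its other class probes had medians of 1.97, 1.56 and 1.12. Fos had 2 of 9, at -2.70 and -3.18, -1.82 and -1.44, and -0.23 and -0.95, beside medians of -0.53, 0.71 and 0.16. The Myc members were low on all 3 arrays, and those of Fos were near the bulk of the array for H3K9me2.

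Families of tissue-restricted genes were not set apart in 1 direction. Olfactory receptor genes had 14 of 152, 9.21%, against 12.5 from their low GC content, but 9 against 11.3 with the value table, 16 against 7.19 with normexp and 18 against 9.56 with loess. Cytokines and chemokines had 7 of 136, 5.15%, against 8.86, but 9 against 5.49 with normexp and 13 against 7.91 with loess. Keratins had 11 of 134, 8.21%, against 8.92, and ion channels 20 of 451, 4.43%, against 24.8, the latter 27 against 24.1 with loess. Solute carriers, with 47 of 881, 5.33%, against 46.7, and zinc finger proteins, with 33 of 592, 5.57%, against 28.4, were close to the class.

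**Figure D5:**
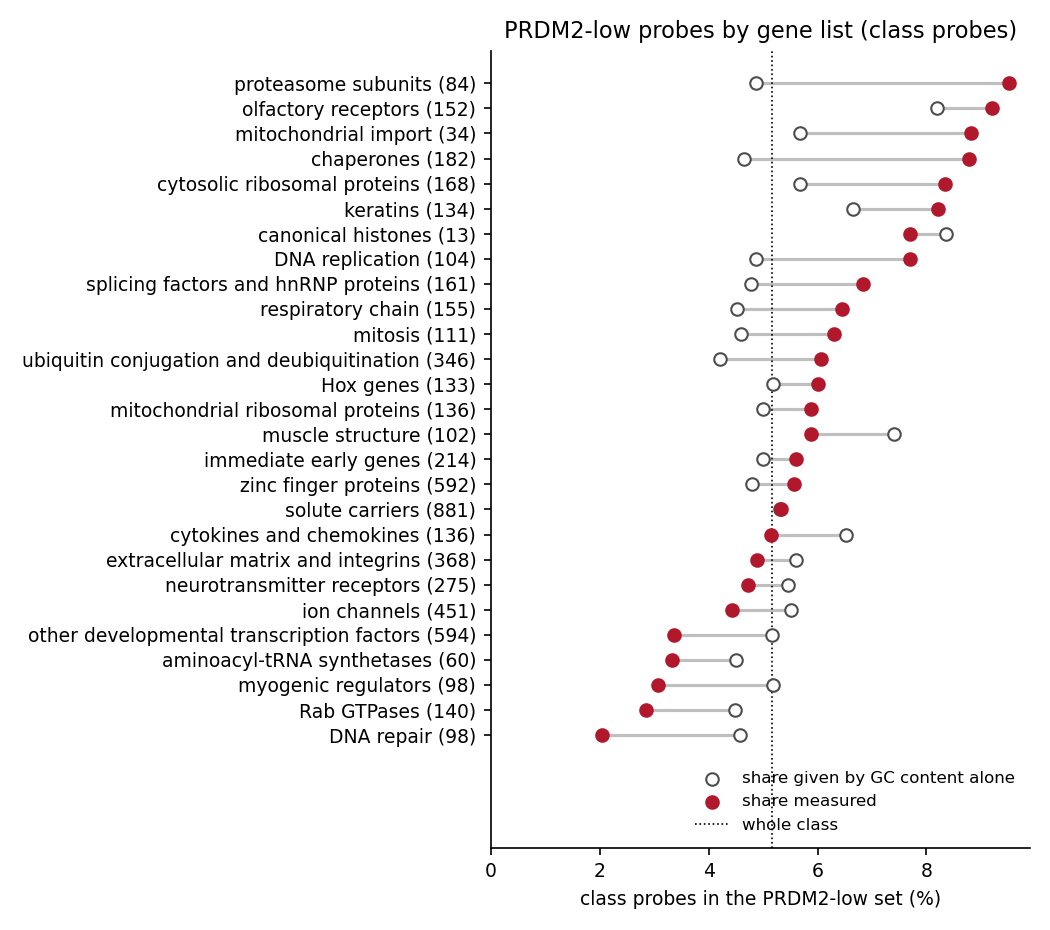
Percent of class probes in the PRDM2-low set (horizontal axis) for the 27 gene lists with at least 13 class probes (vertical axis, number of class probes in brackets); filled points are measured shares, open points the shares that GC content alone gives, and the dotted line is the 5.17% of the class. Proteasome subunits lie highest at 9.52%, and other developmental transcription factors lie at 3.37%, left of the 5.16% given by GC content.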

How the data were processed

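The deposited processed intensities came from Feature Extraction 10.5.1.1 of Agilent, per the file headers, after background subtraction, detrending and dye normalization. The deposited log10 ratios of red over green served as a check. The authors' value table is, by its correlation of 0.965, 0.940 and 0.972 with the log2 ratio of PRDM2 array 1, PRDM2 array 2 and the H3K9me2 array, a log2 ratio too, with medians of 0.124, 0.103 and 0.278 and an unstated centring. A deposited column of control types marked controls, and deposited flags of 0 or 1 marked outliers and spots well above background.

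The log2 ratio of red (IP) over green (input) processed signal was used without centring, with Python 3.11.15 and limma 3.58.1 in R 4.3.3 for normexp (offset 50) and loess. The number of arrays limits the precision: with 2 PRDM2 arrays that chose the set and 1 H3K9me2 array, values are descriptions and no test across probes was made. GC-weighted values weight other class probes to the set's whole-percent GC contents. Of 1836 gene names, 1523 are current symbols and 285 a synonym of 1 gene. Outlier spots were kept, and 3 set probes had such a flag. The scripts were tested on simulated data. The members and the gene lists were chosen with earlier results of these data known. Named probes are the 5 lowest by mean PRDM2 ratio, the 3 just inside and just outside the limits, the 5 highest and lowest for H3K9me2, the 12 genes with most members, the longest runs and up to 2 genes per list, with predicted gene names passed over. The 5 probes with the longest self-complementary stretches were added to this rule after values had been seen. Alternatives changed the signal, the limits, the probes admitted and the arrays used.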

Additional observations from a re-analysis of the deposited data

How the results depend on the processing

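The set held 2040 probes. It had 1315 with normexp, 827 with the lowest 5%, 4711 with the lowest 20% and 895 when input had to be above the class median on all 3 arrays. Leaving out either PRDM2 array gave 3943, since low on the other array alone then sufficed. The median H3K9me2 log2 ratio stayed below that of the other class probes under all 13 alternatives. The difference of -2.49 became -1.23 with normexp, -1.81 with loess, -2.87 and -2.05 with the lowest 5% and 20%, -2.20 with limits within each percent of GC, -2.21 with IP well above background on both PRDM2 arrays and -2.40 with high input, and lay between -2.13 and -1.96 without either PRDM2 array. The median CpG count, equal in both groups, was lower in the set by 1 (-1.0) with normexp, with loess and with IP well above background, and lay between -1.0 and 0.0 without either PRDM2 array. The share of the set with a neighbouring member was 6.52%, against 6.12% of the other class probes. It was 3.35% against 3.85% with normexp and 8.94% against 5.80% with loess. With the lowest 5% it was 1.93% against 2.59%, and with the lowest 20% 13.6% in both groups. High input gave 5.47% against 3.91%, and IP well above background on both PRDM2 arrays 6.61% against 5.34%. Without either PRDM2 array it was 12.0% to 12.4% against 11.3% to 11.8%. Leaving out chromosome 15 was added after seeing the data and gave 1944 probes. Depth is limited by dim IP spots, and the cause of the changes with normexp and loess was not tested.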

Other observations

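Probes of the X chromosome had no part in the choice of the set. Of 1203 X probes with the same GC content and sufficient input, 24 or 2.00% were below both autosomal PRDM2 limits. H3K9me2 was at or below the autosomal lowest 10% on 8 of these 24, 33.3%, and on 4.24% of the other X probes. The median H3K9me2 log2 ratio was -1.16 in the 24 and 1.00 in the others. A self-complementary stretch of 8 or more bases was found in 12.5% of the 24 and 10.8% of the others, so the excess of such stretches seen on autosomes was small here, in few probes.

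The probes low for H3K9me2 alone also held many self-complementary stretches. Of the 1496 class probes in the lowest 10% for H3K9me2 and low on neither PRDM2 array, 21.2% held such a stretch, against 10.5% of the 32085 low on no array, and the mean CpG count was 2.07 against 1.83, where the set had 1.76. Their median GC content was 53.3% and the set's 51.1%, so these CpG means are not compared at equal GC. Of the 1249 probes low on all 3 arrays 25.9% held such a stretch.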
